A study of Homo sapiens with 4 samples.

Results

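Signals of 10 genes for ATP-binding cassette (ABC) transporters that pump drugs out of cells were examined on arrays of 2 cell lines, MDS-L and its derivative MDS-L/CDA, with and without AZA. The genes were ABCB1, ABCG2, ABCC1, ABCC2, ABCC3, ABCC4, ABCC5, ABCC6, ABCC10 and ABCA3, taken by gene name from the array's own annotation. They account for 20 of the 58185 gene probes and 10 of the 43311 gene names on the array. The members were chosen by gene name and function, with earlier results of these arrays known, among them the scaled signals and AZA/vehicle ratios given here, so their values are a description, with no test. ABC transporters use the energy of ATP to move molecules across membranes. ABCB1 (P-glycoprotein) and ABCG2 (breast cancer resistance protein) export many unrelated drugs and mark normal haematopoietic stem cells, whereas the ABCC proteins (multidrug resistance-associated proteins) export organic anions, among them drugs joined to glutathione, and some of them export nucleotides.

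MDS-L was derived from cells of a myelodysplastic syndrome, and MDS-L/CDA was made from it and rendered resistant to AZA by transduction of CDA, the gene of a deaminase of cytidine analogues. AZA (5-azacytidine) is a cytidine analogue that is built into nucleic acids and traps DNA methyltransferase. Both lines were grown with serum and IL-3 and received DMSO (0.1%, the vehicle) or AZA (1 μM) over 72 h. Each of the 4 conditions has 1 array. For the MDS-L AZA and MDS-L/CDA vehicle arrays 1 of the labels names the opposite treatment, and the titles give the dose as mM. The title, description and source name were followed for the treatment, and the source name for the dose. Whether MDS-L/CDA is 1 clone is not given in the sources used here, so the transduced gene, the selection of the line and a clone's own history cannot be told apart in any comparison of the lines.

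As no condition has a second array, no difference could be set against replicates, and no p-value is given. Signals are background-subtracted spot intensities divided by the 75th percentile of the array, called scaled signals here, so that a scaled signal of 1 equals that percentile. A signal that the scanner output does not flag as well above background is called below background. The only error at hand is the spread between repeated spots of a probe, which covers neither hybridization nor culture. For a log2 ratio of single spots, its SD was 0.46 at scaled signals under 4, 0.40 from 4 to 16 and 0.28 over 16. Each probe here has 1 spot, levels are compared only within a probe, and a difference of at least 2-fold is counted. The 75th percentile was 52.5 and 52.9 on the MDS-L arrays and 40.8 and 37.3 on the MDS-L/CDA arrays, and the lowest scaled signal well above background was 0.19 on both MDS-L arrays and 0.27 and 0.30 on those of MDS-L/CDA. On each array 32.6% to 36.5% of probes were well above background. Scaling to the median over all probes, an alternative used below, therefore rests on dim signals. The lines carried myeloid progenitor markers, with 10 or 11 of 12 well above background on each array, including CD34, CD33 and KIT, while MPO was below background throughout. The CDA probe was below background on all 4 arrays, at scaled signals of 0.11 and 0.09 in MDS-L and 0.11 and 0.15 in MDS-L/CDA, so the arrays give no check of the transduction that the MDS-L/CDA label names. Whether this probe lies in the transduced sequence was not examined.

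By their brightest probe, 6 transporters were well above background on all 4 arrays, 2 (ABCA3 and ABCC3) on some and 2 on none. Of the 20 probes, 9 were well above background on all 4 arrays, 3 on some of them and 8 on none, against 61.3% of all probes on none. The 8 genes ABCA3, ABCC1, ABCC2, ABCC3, ABCC4, ABCC5, ABCC6 and ABCC10 had at least 1 probe above background somewhere, and ABCB1 and ABCG2 had none. Probe sequences of ABCC4 and ABCC3 are shown because their signals separated the lines under AZA, and 1 of ABCB1 because it stayed dark. The ABCB1 sequence is that of the dimmer of its 2 probes, both below background on all arrays. Each is 60 bases long, with positions in hg19 as the array files give them. The ABCC4 and ABCB1 probes shown span more genome than their own length and so cross a splice junction.
ABCC4, chr13:95813571-95815416, minus strand: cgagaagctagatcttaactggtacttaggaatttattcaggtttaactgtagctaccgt
ABCC3, chr17:48745220-48745279, plus strand: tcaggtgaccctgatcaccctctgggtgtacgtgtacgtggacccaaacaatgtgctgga
ABCB1, chr7:87135313-87138603, minus strand: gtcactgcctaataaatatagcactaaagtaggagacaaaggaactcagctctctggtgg

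**Figure D1:**
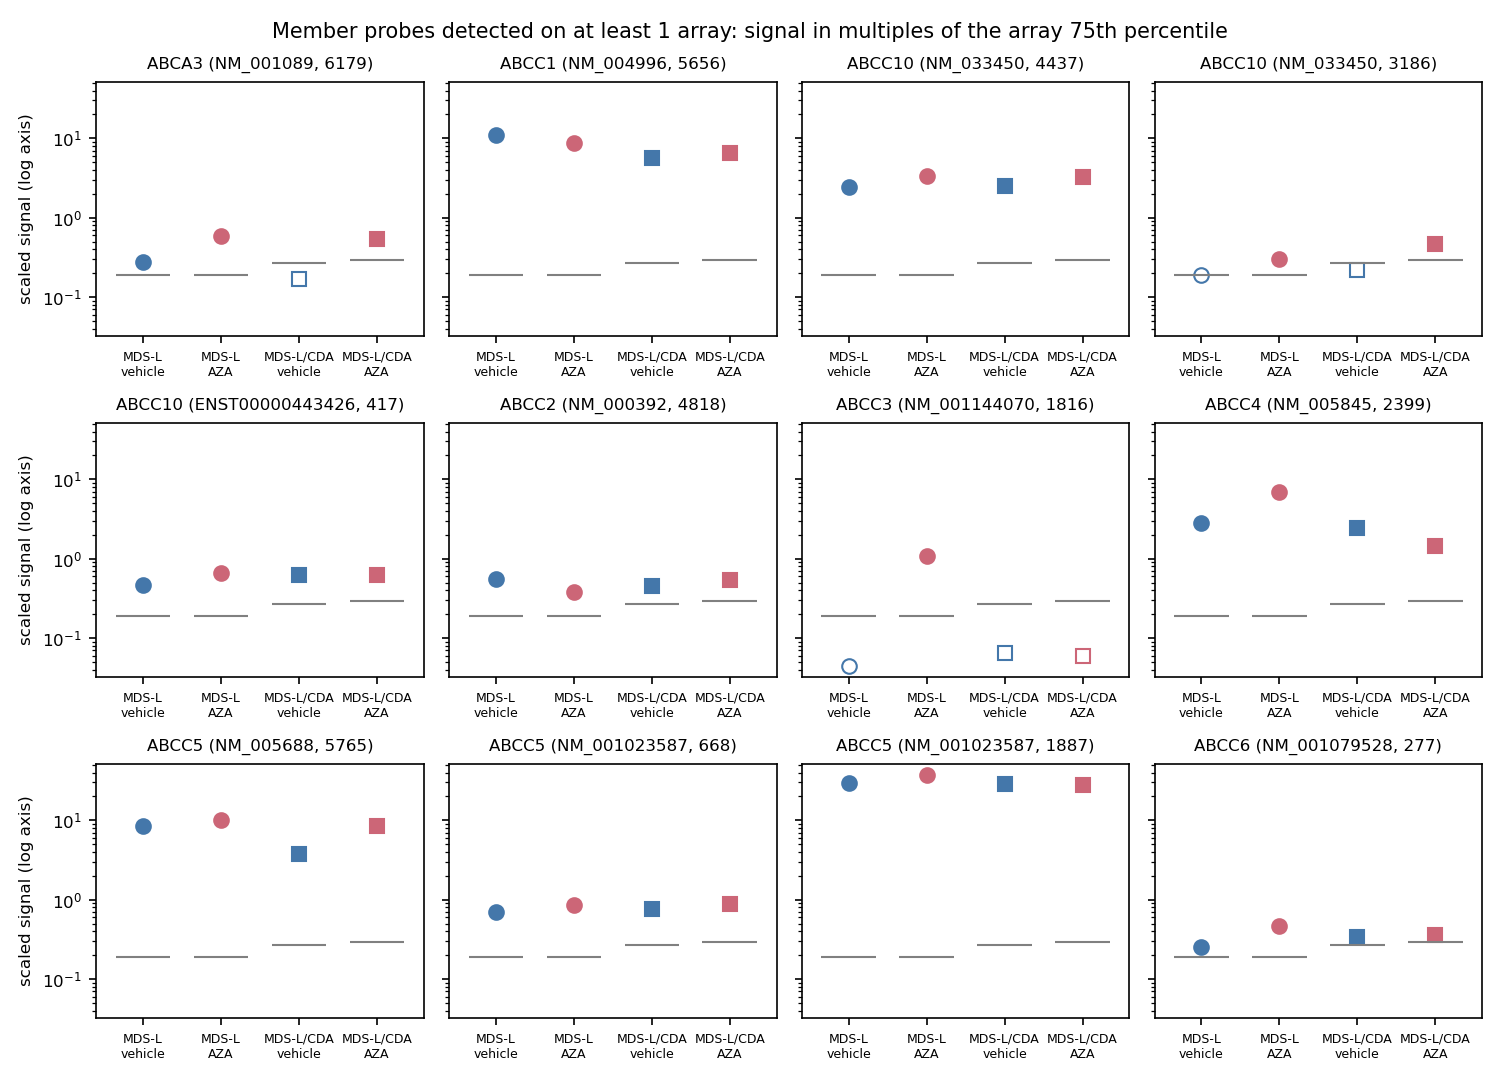
Scaled signal (multiples of the array 75th percentile, log axis) of the 12 probes well above background on at least 1 array, titled by gene, target transcript and position in it. Filled symbols are well above background, open ones are not, circles are MDS-L, squares are MDS-L/CDA, blue is vehicle, red is AZA, and the grey lines mark the lowest well-above-background signal of each array. ABCC4 was highest in MDS-L AZA (6.88) and lowest in MDS-L/CDA AZA (1.44), and ABCC3 was filled only in MDS-L AZA (1.09).

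Probes of the nucleotide exporters ABCC4 and ABCC5 were detected on every array. ABCC4 (MRP4) exports cyclic nucleotides, prostaglandins and phosphorylated nucleoside analogues. In MDS-L cells its single probe had a scaled signal of 2.85 with vehicle and 6.88 with AZA. In MDS-L/CDA cells the scaled signal was 2.43 with vehicle and 1.44 with AZA. The signal was thus highest in MDS-L cells under AZA and lowest in MDS-L/CDA cells under AZA, with the vehicle arrays of the lines between them. The AZA/vehicle ratio was 2.41 in MDS-L cells (log2 1.27, spot SD 0.43) and 0.59 in MDS-L/CDA cells (log2 -0.76, spot SD 0.46). Under vehicle the log2 ratio of MDS-L/CDA over MDS-L was -0.23, less than the spot SD of 0.46, but it was beyond that SD without scaling (-0.60) and with scaling to the median (-0.76). Under AZA, ABCC4 was 4.80-fold lower in MDS-L/CDA than in MDS-L cells (log2 -2.26, spot SD 0.43).

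ABCC5 (MRP5), another exporter of cyclic nucleotides and nucleotide analogues, has 3 probes, and they did not move together. The brightest on average, at position 1887 of transcript NM_001023587 (chr3:183701567-183701626), had scaled signals of 29.4 with vehicle and 37.1 with AZA in MDS-L, and of 28.7 and 27.5 in MDS-L/CDA. Its AZA/vehicle ratio was 1.26 in MDS-L and 0.96 in MDS-L/CDA cells. A probe at position 5765 of the transcript NM_005688 (chr3:183637742-183637801) gave 8.51, 10.2, 3.81 and 8.37 in the same order. At that probe the MDS-L/CDA vehicle array stood below the other 3, so that the AZA/vehicle ratio was 2.20 in MDS-L/CDA cells (log2 1.14, spot SD 0.43) and 1.19 in MDS-L cells, and the vehicle-treated lines differed 2.23-fold. The probe at position 668 of NM_001023587 had scaled signals from 0.69 to 0.89. The ABCC5 call in MDS-L/CDA cells was therefore made at 1 of 3 probes, the one annotated to NM_005688. Whether the 3 probes read the same transcripts was not examined.

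The next genes export conjugated anions. ABCC1 (MRP1) exports glutathione conjugates such as leukotriene C4. Its probe (chr16:16236024-16236083) had scaled signals of 11.1 with vehicle and 8.77 with AZA in MDS-L, and of 5.61 and 6.57 in MDS-L/CDA. Both MDS-L arrays were above both MDS-L/CDA arrays. The difference of the lines under vehicle was 1.97-fold, just short of the 2-fold limit (log2 -0.98, spot SD 0.40), and was past it under 4 other scalings or background corrections, at log2 -1.01 to -1.50. The AZA/vehicle ratio of ABCC1 was 0.79 in MDS-L and 1.17 in MDS-L/CDA cells, both within the spread between spots. With scaling to the median the value in MDS-L cells was beyond that spread (log2 -0.88, spot SD 0.40).

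ABCC3 (MRP3), which exports bile salts and glucuronides, was seen on 1 array only. The probe for NM_001144070, printed above, had a scaled signal of 1.09 in MDS-L cells with AZA. It lay below background at 0.04 in MDS-L cells with vehicle and at 0.06 on each array of MDS-L/CDA. Against the lowest signal well above background on the dim array, it was at least 5.74-fold higher with AZA than with vehicle in MDS-L cells and at least 3.69-fold lower in MDS-L/CDA AZA than in MDS-L AZA. The other ABCC3 probe, at position 4803 of NM_003786, was below background on all 4 arrays, including the 1 on which the first was bright. The contrast of ABCC3 thus rests on 1 spot of 1 array.

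For the rest of the ABCC genes no measured ratio reached 2-fold in any of the 4 comparisons. ABCC2 (MRP2), the exporter of conjugated bilirubin into bile, gave 0.56 with vehicle and 0.38 with AZA in MDS-L, and 0.45 and 0.54 in MDS-L/CDA, at its brighter probe, and its other probe was below background throughout. ABCC10 (MRP7), a pump for taxanes among other drugs, gave 2.45, 3.38, 2.53 and 3.24 in the same order at its brightest probe, with AZA/vehicle ratios of 1.38 in MDS-L and 1.28 in MDS-L/CDA cells. All 4 ABCC10 arrays thus lay within 1.38-fold of each other at that probe, and scaled signals at the other 2 ABCC10 probes were 0.19 to 0.65. The probe at position 3186 was well above background on the AZA arrays only. Its AZA/vehicle ratio was at least 1.59 in MDS-L and at least 1.71 in MDS-L/CDA cells. At position 417 of ENST00000443426 the ratios were 1.40 and 1.00. ABCC6 (MRP6), whose loss causes pseudoxanthoma elasticum, gave 0.26 with vehicle and 0.47 with AZA in MDS-L, and 0.34 and 0.36 in MDS-L/CDA. Its AZA/vehicle ratio was 1.84 in MDS-L (log2 0.88, spot SD 0.46) and 1.05 in MDS-L/CDA cells. This probe is also assigned to the pseudogene ABCC6P2, so its source is uncertain, and the other 3 ABCC6 probes were not flagged well above background on any array. Of these, the probe at position 627 had scaled signals of 0.04 with vehicle and 0.21 with AZA in MDS-L. In MDS-L/CDA it had 0.08 and 0.06.

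ABCA3, a lipid transporter of lysosome-related organelles, was near the detection limit. In MDS-L its scaled signal was 0.28 with vehicle and 0.59 with AZA, and in MDS-L/CDA it was 0.17 with vehicle, below background, and 0.54 with AZA. Both AZA arrays were above both vehicle arrays. The AZA/vehicle ratio was 2.14 in MDS-L cells (spot SD of the log2 ratio 0.46) and at least 1.98 in MDS-L/CDA cells, where the bound, and not a measured ratio, kept it under 2-fold. The broad-specificity pumps ABCB1 and ABCG2 remained below background, with scaled signals of 0.04 to 0.07 at the ABCB1 probes and 0.04 to 0.10 at the ABCG2 probe. No fold can be given for them, and a transcript too rare for the array would look the same.

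**Figure D2:**
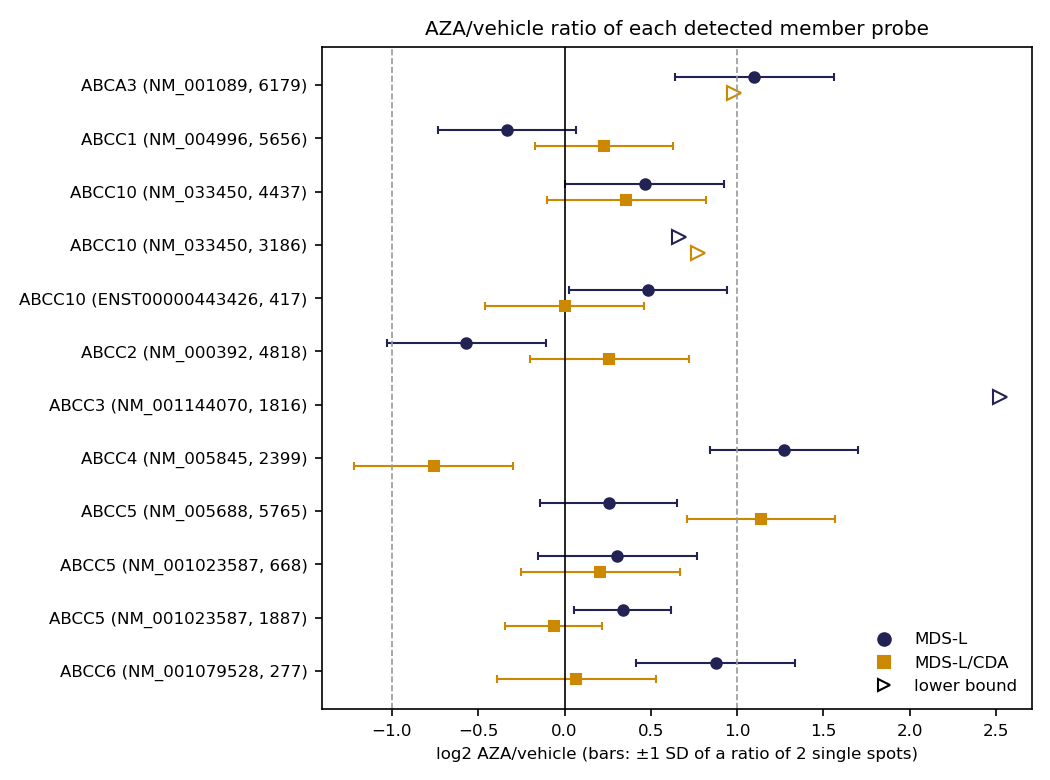
Log2 AZA/vehicle of each detected probe in MDS-L (dark circles) and MDS-L/CDA cells (orange squares), labelled by gene, target transcript and position. Bars are 1 SD of a log2 ratio of single spots, open triangles are lower bounds, and dashed lines mark 2-fold. ABCC4 lay at 1.27 and -0.76, the position-5765 probe of ABCC5 at 0.26 and 1.14, and ABCC3 at a lower bound of 2.52 in MDS-L cells only.

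Counted at the brightest probe of each gene, 3 of the 8 transporters measured on at least 1 MDS-L array, ABCC3, ABCC4 and ABCA3, passed 2-fold upwards with AZA, and 0 did so downwards. Of all 17172 genes measured in that pair 6.73% were higher and 6.03% lower by the same rule. The median log2 ratio of the 7 transporters well above background on both arrays was 0.46, against -0.16 for 15104 genes, and was negative, at -0.08, with scaling to the median, which moved the median of all genes to -0.70. With ABCC3 included at its bound it was 0.67. Scaling to the median took ABCC4 (log2 0.73) and ABCA3 (log2 0.56) under 2-fold, normexp background correction took ABCC3 (log2 0.79) and ABCA3 (log2 0.29) under it, and quantile normalization (log2 0.95) and the authors' value table (log2 0.94) took ABCA3. In MDS-L/CDA cells 0 of 7 transporters were higher and 0 lower, against 2.53% and 3.07% of all genes, with a median log2 ratio of 0.15 for 6 transporters and 0.01 for all genes. In that line the position-5765 probe of ABCC5 passed 2-fold, where 2.48% of all probes were higher, and fell short of it with normexp (log2 0.85). At ABCC3, ABCC5 and ABCC6 the brightest probe is annotated to NM_001144070, NM_001023587 and NM_001079528. Another probe of each is annotated to NM_003786, NM_005688 and NM_001171. Whether the transcripts read encode a whole pump was not examined. With so few members, counts of this size describe these arrays and no more.

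Between the lines, 0 of 7 transporters differed 2-fold under vehicle, against 1.97% of all genes higher and 2.64% lower in MDS-L/CDA, and at probe level the position-5765 probe of ABCC5 was lower, as were 2.71% of all probes. Under AZA 0 of 8 were higher and 2, ABCC3 and ABCC4, were lower in MDS-L/CDA cells, against 5.43% and 5.23% of all genes. Of these ABCC3 fell short of 2-fold with normexp (log2 -0.55). The median log2 ratio of MDS-L/CDA over MDS-L was -0.13 for the transporters and 0.09 for all genes under vehicle, and -0.41 and 0.23 under AZA. Each of the 4 arrays enters 2 of these comparisons. The MDS-L AZA array alone carries both ABCC3 differences, whereas for ABCC4 the MDS-L/CDA AZA array was also below both vehicle arrays. In RNA of whole cultures, fewer cells of a type and less RNA per cell cannot be told apart. Of 7 stromal and epithelial markers, 2 (KRT8 and KRT18) were well above background on every array. On the MDS-L AZA array 3 of 5 T lymphoid markers were well above background, against 1 or 2 on the other arrays, with CD3D at a scaled signal of 4.47 and CD2 at 1.29, while CD3E and CD3G were below background on every array. The summed scaled signal of that list, most of it CD7, was 16.9 with vehicle and 15.3 with AZA in MDS-L, and 21.2 and 27.0 in MDS-L/CDA, and its part in the ABCC3 and ABCC4 differences was not tested.

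The difference of the AZA response between the lines was taken at the 9 probes well above background on all arrays, as log2 AZA/vehicle in MDS-L minus that in MDS-L/CDA cells. For ABCC4 it was 2.03 (4.08-fold, spot SD 0.63), and it was the only one of the 9 at or beyond 1 in either direction, except that with scaling to the median the position-5765 probe of ABCC5 (-1.37), ABCC2 (-1.31) and ABCC1 (-1.05) also passed 1. Across all 17809 such probes the median was -0.16 and the SD 0.63, with 3.97% at or above 1, 6.4% at or below -1 and 0.427% at or above the ABCC4 value. The position-5765 probe of ABCC5 (-0.88, spot SD 0.59), ABCC2 (-0.83, spot SD 0.65) and ABCC1 (-0.56, spot SD 0.56) lay on the other side of 0, and ABCC6 on the same side as ABCC4 (0.81, spot SD 0.65). Of the 9 probes, only that of ABCC4 was above its vehicle signal in one line and below it in the other by more than its spot SD in each, and with normexp its value in MDS-L/CDA cells (log2 -0.43) was within that SD.

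**Figure D3:**
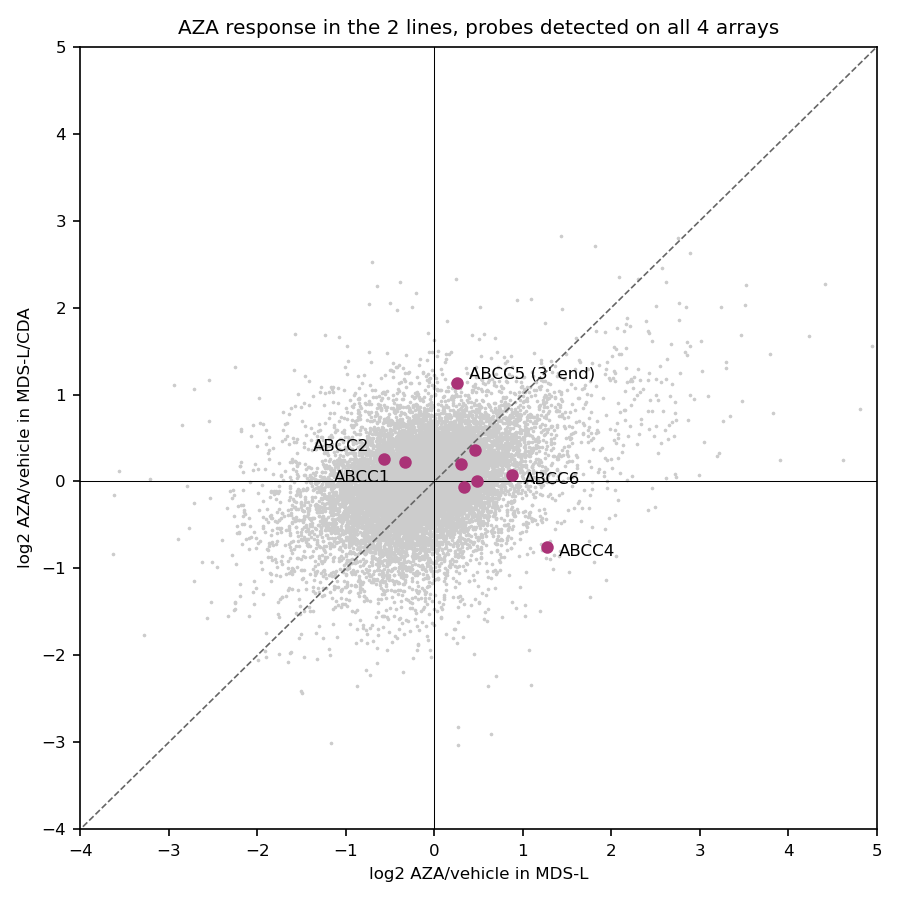
Log2 AZA/vehicle in MDS-L cells (x) against MDS-L/CDA cells (y) for 17809 probes well above background on all 4 arrays (grey), 5 of them outside the axes, with the 9 transporter probes in purple. The dashed diagonal marks equal response. ABCC4 lies to the lower right of it at 1.27 and -0.76, and the ABCC5 probe at position 5765, marked as the 3′ end, lies above it at 0.26 and 1.14.

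Over the 4 arrays ABCC4 ranged most widely among the 6 transporters measured everywhere at their brightest probe, by 4.80-fold (log2 2.26), and 1.52% of all probes ranged more widely. This range is the difference between the 2 AZA arrays already given for ABCC4, and not a further result. ABCC1 ranged 1.97-fold, and ABCC6, ABCC2, ABCC10 and ABCC5 between 1.84- and 1.35-fold. The genes whose centred log2 signals lay nearest to ABCC4 by Euclidean distance, over 4 arrays and 17809 probes, were PFKFB2, PPP1R21 and HIPK2. PFKFB2, an enzyme that makes an activator of glycolysis, was at a distance of 0.20, with scaled signals of 3.83 with vehicle and 8.13 with AZA in MDS-L, and of 3.41 and 2.01 in MDS-L/CDA. PPP1R21, at 0.24, gave 0.60, 1.62, 0.47 and 0.34 in the same order. HIPK2, a nuclear protein kinase, gave 1.22, 4.10, 1.36 and 0.84, at a distance of 0.39. With 4 arrays many probes can share such an order of signals.

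Other ABC genes are mostly transporters of lipids, peptides and mitochondrial substrates, or soluble proteins of translation. Of 37 read here, 17 were well above background on all arrays at their brightest probe and 20 on none. With AZA, 6.73% of all genes were at least 2-fold higher and 6.03% lower in MDS-L, and 2.53% and 3.07% in MDS-L/CDA cells. Of the 17, 0 were higher in either line, and 2 were lower in MDS-L and 1 in MDS-L/CDA cells. Those lower in the parental line were ABCA1, the cholesterol exporter, with an AZA/vehicle ratio of 0.43, and ABCB10, a mitochondrial transporter needed for haem synthesis, with 0.35. In MDS-L/CDA cells it was ABCB10 again, with 0.19. ABCA1 went the other way there, at 1.59, and its scaled signal under AZA was 4.88 in MDS-L and 14.7 in MDS-L/CDA cells. Over these 17 genes the median log2 AZA/vehicle was -0.18 in MDS-L and -0.11 in MDS-L/CDA, against 0.46 and 0.15 for the drug exporters and -0.16 and 0.01 for all genes.

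**Figure D4:**
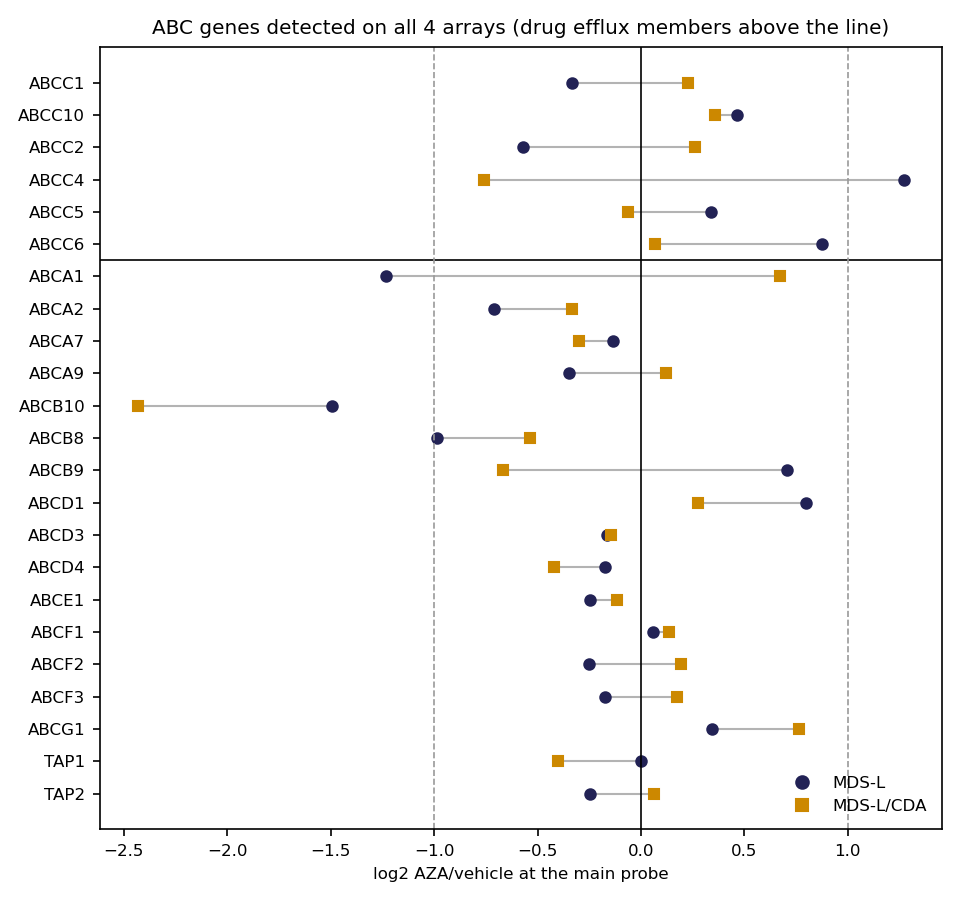
Log2 AZA/vehicle at the brightest probe of ABC genes well above background on all 4 arrays, in MDS-L (dark circles) and MDS-L/CDA cells (orange squares), with the 6 drug exporters above the horizontal line and 17 other ABC genes below it. Dashed lines mark 2-fold. ABCC4 is the one drug exporter past a dashed line, and below the line only ABCA1 and ABCB10 are, both to the left.

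Genes that act on or beside these pumps were read by the same rule. The shares of all genes to set beside their counts are again 6.73% higher and 6.03% lower in MDS-L. In MDS-L/CDA cells they are 2.53% and 3.07%. Of 18 known regulators of ABC genes, most of them transcription factors, 12 were detected, and NR1I2 and NR1I3, the xenobiotic receptors that induce ABCB1 and several ABCC genes in liver, were below background on all arrays. Of the 12, 0 changed 2-fold with AZA in MDS-L cells and 1 did in MDS-L/CDA cells, the hypoxia-responsive factor EPAS1, with a ratio of 2.27 (1.57 in MDS-L cells). Among 15 genes of glutathione synthesis and conjugation on the array, which supply substrates to the ABCC pumps, 12 were measured in the MDS-L pair. GSTM2, a glutathione transferase, was at least 3.59-fold higher with AZA there, and MGST1, a membrane-bound transferase, had a ratio of 0.35. In MDS-L/CDA cells 0 of 10 measured passed 2-fold in either direction. Of 6 other efflux genes, 4 were measured. MVP, the major vault protein, had scaled signals of 4.49 with vehicle and 21.1 with AZA in MDS-L, and of 3.13 and 6.97 in MDS-L/CDA. Its AZA/vehicle ratio was 4.69 in MDS-L and 2.23 in MDS-L/CDA cells, higher with AZA in both lines. ATP7B, a copper exporter, had scaled signals of 1.68 with vehicle and 3.84 with AZA in MDS-L, a ratio of 2.28. In MDS-L/CDA its scaled signals were 0.30 with vehicle, not well above background, and 0.34 with AZA, a ratio of at least 1.13.

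The start regions of the transporters differ in how many CG pairs they hold, the sites that DNA methyltransferases modify. In RefSeq promoters (GRCh38.p14), 8 of the 10 genes had an entry, with 15 start sites in all, and CG was counted in the 250 bases before each start. ABCC4 had 42 (chr13:95301452-95301701), a count that 1.38% of 35116 promoters reach, and ABCA3 had 38 (3.28%). ABCG2, below background on all arrays, had 32 (9.52%) at its CG-richest start and 2 at its poorest. ABCC6 had 22 and 21, ABCC5 21, ABCC10 16 and 14, ABCB1 12 and 1, and ABCC2 1. The median promoter had 11, and ABCC1 and ABCC3 had no entry. Methylation was not measured on these arrays, and these counts carry no statement on it.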

How the data were processed

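RNA of both lines, each given vehicle or AZA, was hybridized to 4 one-colour (Cy3) Agilent arrays of design 072363 on 1 slide, 1 array per group. The authors deposited the scanner output of Feature Extraction 10.7.1.1, whose intensity values are background-subtracted and not normalized between arrays, and a value table of intensity on a linear scale, whose columns, after sorting, lay within 0.039 log2 units of each other and whose medians are 4.24, 4.31, 4.21 and 4.22. How that table was made is not given in the sources used here. Positions of probes are the hg19 coordinates that the scanner files give.

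Control spots and outlier spots were left out (16 probes lost), spots of a probe were averaged as log2 intensity, and each array was scaled to its 75th percentile. A gene was read at its brightest probe by mean log2 signal. A difference counted when it was at least 2-fold with the brighter array well above background. A signal below background was first raised to the lowest signal well above background on its array, unless its own value was higher, and such a fold is written as "at least". The study's Z score has no stated formula here and was used only as an alternative. The members and gene lists were chosen with earlier results of these data known. All 10 members were named at every probe, as were CDA and DNMT1 (below), the 3 genes nearest to the member with the widest range, and at most 3 counted genes per list and direction in the AZA comparisons. DNMT1, the target of AZA, had AZA/vehicle ratios of 0.80 in MDS-L and 1.11 in MDS-L/CDA cells. Of the 20 probes, 18 carried a RefSeq accession that matched the member's symbol. Some items of the gene lists are not reported here. Exon and UTR positions of probes were not annotated, as no hg19 annotation was used. The rule was tested on simulated data. Other scalings, background corrections, filters, thresholds and rules for several probes were tried. Python 3.11.15, numpy 2.4.6, pandas 2.3.3, matplotlib 3.10.9 and biopython 1.88 were used. Normexp (offset 50) ran in limma 3.58.1 under R 4.3.3. The number of arrays limits the precision.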

Additional observations from a re-analysis of the deposited data

Results flagged for a closer look

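The AZA/vehicle ratio of ABCC4 was above 1 in MDS-L (2.41) and below 1 in MDS-L/CDA cells (0.59). The brightest ABCC5 probe had ratios on the same sides of 1, at 1.26 and 0.96, the latter within its spot SD (log2 -0.06, SD 0.28). The ABCC5 probes at positions 5765 (1.19 and 2.20) and 668 (1.24 and 1.15) were above 1 in both lines. With scaling to the median each of these ABCC5 probes was below 1 in MDS-L cells, at log2 -0.20, -0.29 and -0.24. For ABCC4 the log2 difference between the lines was 2.03 (spot SD 0.63). It compares single arrays and was not tested.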

How the results depend on the processing

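No paired analysis was possible because each group holds 1 array, for which reason no array could be left out either. The value of ABCC4 kept its direction in every setting: its log2 AZA/vehicle was 0.73 (median scaling) to 1.45 in MDS-L cells and -0.43 (normexp) to -0.89 in MDS-L/CDA cells, and the difference between the lines was 1.48 (normexp) to 2.20. Of 330 single-probe values recomputed, 282 moved by no more than the spread between spots and 48 by more. Of 96 counts of transporters, 80 stayed within 1.5 times and 16 did not. The 3 transporters higher with AZA in MDS-L cells became 1 with median scaling, with normexp and with a Z score of at least 2, and the 0 lower became 1, ABCC2, with median scaling. In MDS-L/CDA cells the 0 higher became 1 with no bound on dim signals, with a ratio of 1.5 and with any probe, and the 0 lower became 1 with a ratio of 1.5. Under vehicle the 0 lower in MDS-L/CDA became 1 without scaling, with median scaling, with the percentile of detected probes, with normexp, with a ratio of 1.5 and with any probe. Under AZA the 2 lower became 1 with normexp and when both arrays had to be above background. The ABCC5 probe at position 5765 had a log2 AZA/vehicle of -0.29 in MDS-L cells with median scaling and 0.26 to 0.44 otherwise. Median scaling set the median log2 ratio of all genes to -0.70 in the MDS-L pair (-0.16 with the 75th percentile) and to -0.43 under vehicle between the lines (0.09). The share of counted genes that were higher, 52.7% in MDS-L, 45.2% in MDS-L/CDA, 42.8% between the lines under vehicle and 51.0% under AZA, became 11.5%, 37.9%, 3.37% and 46.5% with median scaling, 53.7%, 29.0%, 7.61% and 7.11% without scaling, 70.6%, 48.0%, 31.9% and 22.7% with the percentile of detected probes, and 46.8%, 26.3%, 12.5% and 22.5% with normexp. The causes of these shifts were not tested. Signals under the lowest value well above background give bounds only, which limits ABCB1, ABCG2, ABCC3 and ABCA3.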
